A study of Zea mays with 18 samples.

Results

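The transcripts described here are the loci that the authors assembled from their own root reads and that the B73 gene annotation does not list. The table lists each under a fixed prefix and a number, and here each is called locus with that number. Of 5196 such loci among the 55661 features of the expression table, 3118 reached 1 FPKM (fragments per kilobase of transcript, scaled to sequencing depth) in at least 3 of the 18 libraries and were kept. The remaining 2078 failed this minimum, 123 of them with 0 in every library, 870 above 0 but never at 1 FPKM, and 1085 at 1 FPKM in fewer than 3 libraries. The minimum uses the level and no comparison, but a transcript high in 1 genotype only can meet it through that genotype alone, as 201 did in zmccd8 and 83 in WT. At the limit, the third-highest library was at 1.00013 FPKM for locus 586, which was kept, and at 0.99978 FPKM for locus 3372, which was not.

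Messenger RNA was sequenced from roots of wild-type maize (WT, inbred line B73) and of the strigolactone-deficient line zmccd8, in which a Ds transposon sits in the third exon of ZmCCD8 in a B73 background, 1 insertion allele. Plants of both genotypes grew for 4 weeks in vermiculite under complete Hoagland solution (CT), under a solution in which potassium nitrate was replaced by an equimolar amount of potassium chloride (0N), or with nutrient solution given only at transplanting and no irrigation later (WS, water stress). Each of the 6 groups had 3 libraries. The labels call these libraries replicates without saying which plants went into each, so the p-values measure the spread between these samples. The files hold FPKM only, but FPKM times transcript length came out as whole multiples of 1 unit per library (within 0.01 of a unit), which gave back 30104083 to 43429912 reads per library. Assembled transcripts took 3.94% to 5.81% of them, with the highest share in zmccd8 0N replicate 2. The root label was checked against markers: the summed FPKM of Casparian strip membrane protein genes ran from 234 to 799, while the Rubisco small chain genes of leaves did not exceed 8.00 in any library. Pyruvate, phosphate dikinase genes, also on the leaf list, summed to 1.70 to 38.9 FPKM. Phosphoenolpyruvate carboxylase genes, a family with forms outside leaves too, summed to 211 to 461 FPKM, above the Casparian strip genes in every WS group. Chlorophyll a-b binding protein genes summed to 43.2 to 104 FPKM under CT in WT and to 6.24 to 32 in all other groups, and their part in the CT comparisons of WT was not tested.

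An assembler such as StringTie joins overlapping aligned reads into transcript models, and a model that no annotated gene explains is listed as a locus of its own. Such loci can be protein-coding genes that the annotation missed, long noncoding RNAs, transcribed transposable elements, fragments of ribosomal RNA units, or outer parts of a known gene. In a mutant line they are also the place where reads appear that the reference line's annotation was never built from. Strigolactones, which zmccd8 roots lack, are carotenoid-derived hormones that roots release and that rise in many plants when nitrogen or phosphate is short.

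Open reading frames of 4 assembled transcripts are shown because the main responses described here include them. All 4 lie on chromosome 1 of the B73 assembly NAM-5.0, and the letters come from the study's own transcript sequences, which were given for 606 of the 3118 transcripts and cut at 399 bases in all but 47. In 45 of the 47 whole ones the number of bases equals the listed transcript length. Locus 196 (chromosome 1, 206982887 to 206983784, plus strand, 898 bases, 1 exon block) answered water stress most strongly. Its longest frame in the given stretch has 90 codons with no stop, of which 30, in capitals, are codons for proline.
Locus 196: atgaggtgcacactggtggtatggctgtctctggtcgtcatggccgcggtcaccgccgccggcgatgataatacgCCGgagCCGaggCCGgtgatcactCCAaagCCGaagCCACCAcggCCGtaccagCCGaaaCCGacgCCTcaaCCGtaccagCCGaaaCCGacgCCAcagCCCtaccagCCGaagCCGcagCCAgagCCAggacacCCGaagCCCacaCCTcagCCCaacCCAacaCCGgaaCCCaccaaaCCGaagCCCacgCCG
Locus 390 (chromosome 1, 43803008 to 43803841, minus strand) also rose under WS and matches low temperature-induced protein lt101.2 of barley, a very small membrane protein of the kind that cold and drought induce. The frame is complete with 54 codons, and capitals mark the start and stop.
Locus 390: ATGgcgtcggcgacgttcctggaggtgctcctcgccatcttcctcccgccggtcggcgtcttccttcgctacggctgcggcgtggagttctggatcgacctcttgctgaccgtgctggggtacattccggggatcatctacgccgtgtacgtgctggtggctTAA
Locus 430 (chromosome 1, 74921687 to 74922577, minus strand) fell under WS and matches metallothionein-like protein 1A of rice, a cysteine-rich metal-binding protein. The frame runs over 69 codons to the end of the stretch, and the 8 cysteine codons are in capitals.
Locus 430: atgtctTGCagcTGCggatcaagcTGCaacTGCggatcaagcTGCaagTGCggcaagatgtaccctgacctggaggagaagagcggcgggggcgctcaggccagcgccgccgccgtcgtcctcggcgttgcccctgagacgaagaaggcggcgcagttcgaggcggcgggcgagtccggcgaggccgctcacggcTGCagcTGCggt
Locus 266 (chromosome 1, 254645911 to 254646518, plus strand) was found almost only in zmccd8 and matches FATTY ACID EXPORT 3 of Arabidopsis, a protein of the chloroplast envelope. Shown are 300 bases of a frame of 113 codons with no stop in the stretch, with the start codon in capitals.
Locus 266: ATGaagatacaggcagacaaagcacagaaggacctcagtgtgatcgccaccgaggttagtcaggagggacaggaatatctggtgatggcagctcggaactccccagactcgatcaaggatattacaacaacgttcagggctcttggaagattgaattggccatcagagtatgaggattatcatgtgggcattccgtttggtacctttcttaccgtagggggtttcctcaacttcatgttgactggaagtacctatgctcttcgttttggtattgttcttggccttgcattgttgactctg

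The 3118 transcripts were weakly expressed compared with annotated genes that passed the same minimum. Their mean FPKM over 18 libraries had a median of 1.5 and quartiles of 0.871 and 4.22, against 9.14, 3.08 and 22.4 for 24412 annotated features. Means under 2 FPKM were found for 58.5% of the assembled and 17.6% of the annotated features, and 382 assembled transcripts exceeded 10 FPKM. Transcript length ran from 200 to 30716 bases with a median of 1304, and 2198 transcripts had a genomic span longer than their length, so that they consist of more than 1 exon block. FPKM of 1 was reached in all 18 libraries by 927 transcripts, in libraries of zmccd8 only by 201, in libraries of WT only by 83, and in a single group by 40.

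The genomic place of the transcripts was read from the coordinates in the table and from the RefSeq annotation of the same assembly, whose genes overlap 91.3% of the annotated features on chromosomes. By the table's own annotation, 3098 of 3118 lay between genes, 17 overlapped an annotated feature on the same strand and 3 overlapped one on the opposite strand only. The nearest annotated feature was a median of 11723 bases away, within 1000 bases for 438 transcripts and beyond 50000 bases for 595. For 176 transcripts another assembled transcript lay within 1000 bases on the same strand, and whether such pairs are pieces of 1 locus was not tested. RefSeq lists a gene at 2020 of the loci, of which 978 are protein-coding genes, 668 long noncoding RNAs, 240 pseudogenes and 89 rRNA genes. Any overlap on either strand was counted, so a locus at a RefSeq gene need not be a transcript of that gene. The median share of the locus covered was 94.8%, 97.3%, 92.5% and 31.2% for these 4 classes in the same order. RefSeq lists no gene at 1075, and 23 loci are on scaffolds and were not placed. The 1075 were shorter and weaker than those at protein-coding genes, with a median length of 894 against 1644 bases and a median of the mean FPKM of 1.04 against 3.16. Protein matches were given for 785 transcripts, and 2299 had no annotation at all. Chromosome 1 carried 422 of the 3118 and chromosome 3 carried 341. On chromosome 6 assembled transcripts made up 14.9% of the tested features, more than on any other chromosome (8.94% to 12.6%), and 66 of them carry the rDNA-type annotation described further on.

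The 8 most abundant assembled transcripts had means of 453 to 1998 FPKM, and 6 of them match known proteins. Locus 230 (chromosome 1, 227877354 to 227878804) matches a dormancy-associated protein of pea, a family of small proteins linked to growth arrest of buds. It measured 2851, 2525 and 2862 FPKM in the WT libraries under CT and 775, 974 and 674 under WS. zmccd8 libraries held 1977, 3314 and 2062 under CT and 442, 712 and 655 under WS, so no WS library of either genotype overlapped the CT libraries. With two-sided limma tests and Benjamini-Hochberg adjustment over all 27530 features, the log2 difference was −1.78 (SE 0.36, adjusted p = 0.00969) in WT and −2.01 (SE 0.32, adjusted p = 0.00331) in zmccd8. Locus 3047 (chromosome 5, 84400746 to 84403753) and locus 2398 (chromosome 4, 245447324 to 245474504) match polyubiquitins, whose repeated units tag proteins for degradation. They averaged 773 and 578 FPKM, and since polyubiquitin genes share nearly identical repeats, reads may be split among copies. Locus 4266 (chromosome 8, 92569117 to 92570970) matches CADMIUM TOLERANCE 2 of rice and averaged 476 FPKM. Locus 867 (chromosome 10, 4206657 to 4209183) matches the stem-specific protein TSJT1 of tobacco. Its libraries held 705, 461 and 463 FPKM under CT and 138, 153 and 123 under WS in WT, a log2 difference of −1.95 (SE 0.22, adjusted p = 0.0012), and in zmccd8 the difference was −1.71 (SE 0.22, adjusted p = 0.00147). Locus 1367 (chromosome 2, 31716704 to 31717265), with no match and no RefSeq gene, averaged 627 FPKM and fell under WS by a log2 difference of −1.59 in WT and −1.20 in zmccd8 (adjusted p = 0.00646 and 0.00696).

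Genotype was compared within each condition, and a feature was called at an adjusted p of 0.05 or less and a log2 difference of at least 1. Differences are on the scale log2(FPKM + 1), which understates ratios at low levels, and where all libraries of one genotype are listed at 0 they are no measure of fold. The targeted gene, ZmCCD8 (Zm00001eb153000, chromosome 3, 202178668 to 202182189), was measured first. CT libraries of WT held 5.80, 8.76 and 4.16 FPKM of it and those of zmccd8 held 16.6, 5.63 and 8.22. Without nitrate the WT libraries were at 70.9, 64.1 and 47.8 and the mutant ones at 17.6, 9.47 and 19.2. Water-stressed WT was at 10.7, 9.22 and 8.85 and water-stressed zmccd8 at 27.4, 24.2 and 18.1. FPKM are over the whole gene, with no split at the Ds element, so they cannot check the mutant label. In the paper, qRT-PCR did not detect CCD8 transcripts in zmccd8. By condition in the same order, zmccd8 minus WT came to 0.55 (SE 0.39, adjusted p = 0.851), −1.95 (SE 0.28, adjusted p = 0.0235) and 1.18 (SE 0.17, adjusted p = 0.0218) on the log2 scale.

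Most assembled transcripts called between genotypes reached 1 FPKM in 1 genotype only, more of them in zmccd8 than in WT. Under CT 74 of 3118 were called higher (2.37%) and 34 lower (1.09%), where 0.436% and 0.4% of all features were called. Under 0N 127 were higher (4.07%) and 32 lower (1.03%), against 0.683% and 0.89% of all features, and under WS 81 were higher (2.60%) and 24 lower (0.770%), against 0.487% and 0.414%. Assembled transcripts thus made up 47.0%, 36.7% and 42.3% of all genotype calls under CT, 0N and WS, although they were 3118 of the 27530 features tested. Transcripts that reached 1 FPKM in zmccd8 libraries only gave 67, 107 and 75 of the higher calls, and those that did so in WT libraries only gave 31, 27 and 21 of the lower ones. They passed the minimum through the genotype in which they were high and had to differ, so these counts are a description and not support for a direction. Among the 2834 at 1 FPKM in at least 1 library of each genotype, 7, 20 and 6 were called higher and 3, 5 and 3 lower, 0.353%, 0.882% and 0.318% in all. The 24112 annotated genes of the same kind gave 0.299%, 0.900% and 0.369%, with 26, 40 and 32 higher and 46, 177 and 57 lower. With chromosome 3 included and both directions pooled, the shares were thus near each other. Outside chromosome 3 they were 0.234%, 0.820% and 0.195% for assembled transcripts and 0.0974%, 0.529% and 0.148% for annotated genes. In bulk roots, fewer cells of a type and less RNA per cell cannot be told apart. The counts depended on single libraries: without WT CT replicate 1 or 2 the CT count fell from 108 to 69 each time, and the 0N count of 159 became 87 without WT 0N replicate 1, 103 without WT 0N replicate 2 and 264 without zmccd8 0N replicate 3.

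**Figure D1:**
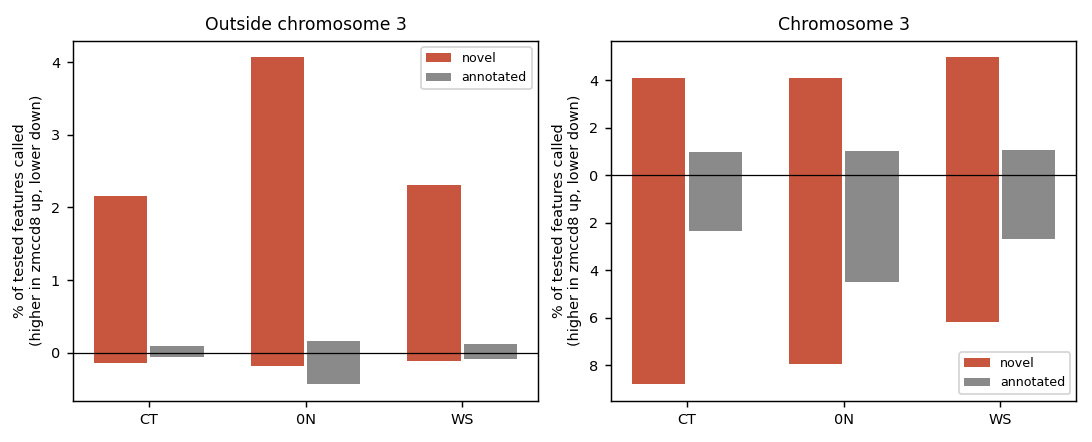
Share of tested features called in zmccd8 against WT under CT, 0N and WS (bars above 0, % called higher in zmccd8; bars below 0, % called lower), for assembled (red) and annotated (grey) features outside chromosome 3 (left) and on chromosome 3 (right), on vertical axes of different range. Outside chromosome 3 the red bars stand at 2.16%, 4.07% and 2.30% above the line and at no more than 0.180% below it, while on chromosome 3 they are longer and reach further down than up.

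Outside chromosome 3, transcripts at 1 FPKM in zmccd8 only made up most of the genotype calls. Of 2777 assembled transcripts there, 60, 113 and 64 were higher in zmccd8 under CT, 0N and WS, and 4, 5 and 3 were lower. Annotated genes outside chromosome 3 showed 20, 34 and 25 higher and 14, 95 and 20 lower among 21778. Of the 2560 at 1 FPKM in both genotypes, 5, 18 and 2 were higher and 1, 3 and 3 lower, and the 21554 annotated genes of this kind gave 9, 21 and 14 higher and 12, 93 and 18 lower. In all 3 conditions 42 of the assembled transcripts were called higher, and limma called 0 lower in all 3. At an unadjusted p under 0.05 in all 3 comparisons, 113 were higher and 9 lower. A test on the rebuilt reads (limma voom) gave 41 and 0, and a fit of all 18 libraries 54 and 1. With 1 library left out in turn the numbers were 29 to 42 higher, the lowest without WT CT replicate 1 or 2 or WT WS replicate 1, and 0 lower throughout. The 113 and 9 and the counts of these fits were not split by the genotype in which 1 FPKM was reached. They are a description and no support for a direction. Over all 27530 features, 0.265% were higher in all 3 comparisons and 0.193% lower, and the annotated genes outside chromosome 3 gave 6 and 1.

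These 42 transcripts were near 0 in WT. In 14 of them all 9 WT libraries were at 0, and in 41 no WT library reached 1 FPKM, so that these passed the minimum through zmccd8 libraries alone and had to differ. Their levels are therefore a description and not support for the direction. The median of their WT means was 0.0101 FPKM and that of their zmccd8 means 5.26 FPKM, with a range of 1.58 to 38.5. In many of those with any WT signal, CT replicate 3 was the only WT library above 0. The source of these traces was not tested. They were scattered over all 9 of the other chromosomes, in 36 places when transcripts within 100000 bases were joined, and 27 had more than 1 exon block. RefSeq lists no gene at 24 of them, compared with 1075 of all 3118 transcripts, and 24 had no annotation. Among assembled transcripts outside chromosome 3, 175 reached 1 FPKM in zmccd8 libraries only and 42 in WT libraries only. For annotated genes there, which passed the same minimum, the corresponding counts were 92 and 132.

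Locus 4065 had the highest mean difference of these (chromosome 7, 104878129 to 104888629, minus strand), and has no protein match. WT libraries held 0.0931, 0 and 0 FPKM under CT, and 0 in all 6 libraries under 0N and WS. In zmccd8 it measured 10.9, 14.5 and 16.6 under CT, 36.2, 34.3 and 23.6 under 0N and 19.3, 29.6 and 16.8 under WS. Every zmccd8 library was above every WT library, and the log2 differences came to 3.85, 4.99 and 4.48. Close by on the same strand (104896600 to 104898607), locus 4066 matches a G-type lectin receptor-like kinase, and was called under 0N only, with 11.3, 12.4 and 8.81 FPKM in zmccd8 and 0 in WT. It too reached 1 FPKM in zmccd8 libraries only, so that its values are a description. Under CT zmccd8 held 1.09, 0.986 and 8.84.

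Locus 1193 (chromosome 2, 130084691 to 130087291) matches a cysteine-rich receptor-like kinase of Arabidopsis, a family of membrane receptors for extracellular signals. It was at 14.2 ± 3.79 (SD, n = 3), 27.6 ± 8.97 and 9.73 ± 1.66 FPKM in zmccd8 under CT, 0N and WS. Of the 9 WT libraries only CT replicate 3 was above 0, at 0.0677. Locus 266, whose frame is shown above, was steady in zmccd8, with 13.7, 16.3 and 15.5 FPKM under CT, 13.8, 15.1 and 22.7 under 0N and 15, 13 and 16.7 under WS. WT had 0.282 in CT replicate 3 and 0 in the other 8 libraries. Its log2 differences were 3.89, 4.16 and 3.98.

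Locus 904 (chromosome 10, 35746916 to 35749229), 250196 bases from the nearest annotated gene, was at 7.23, 10.8 and 7.38 FPKM in zmccd8 under CT, 20.7, 31.5 and 15.3 under 0N and 14.5, 11.5 and 3.69 under WS, and at most 0.196 in WT. Its call under WS, at a difference of 3.27, was lost in 5 of 6 fits without 1 library. Locus 4576 (chromosome 9, 20817519 to 20826049) matches transcription elongation factor 1 of rice and is the only 1 of the 42 with WT libraries above 1 FPKM. Under CT it was at 2.61, 1.84 and 3.38 FPKM in WT against 12.1, 32.4 and 29 in zmccd8, and under 0N at 1.37, 1.46 and 1.74 against 54.3, 65.1 and 36.8. Its call under CT, 2.73 (SE 0.37, adjusted p = 0.02), was also lost in 5 of 6 such fits.

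**Figure D2:**
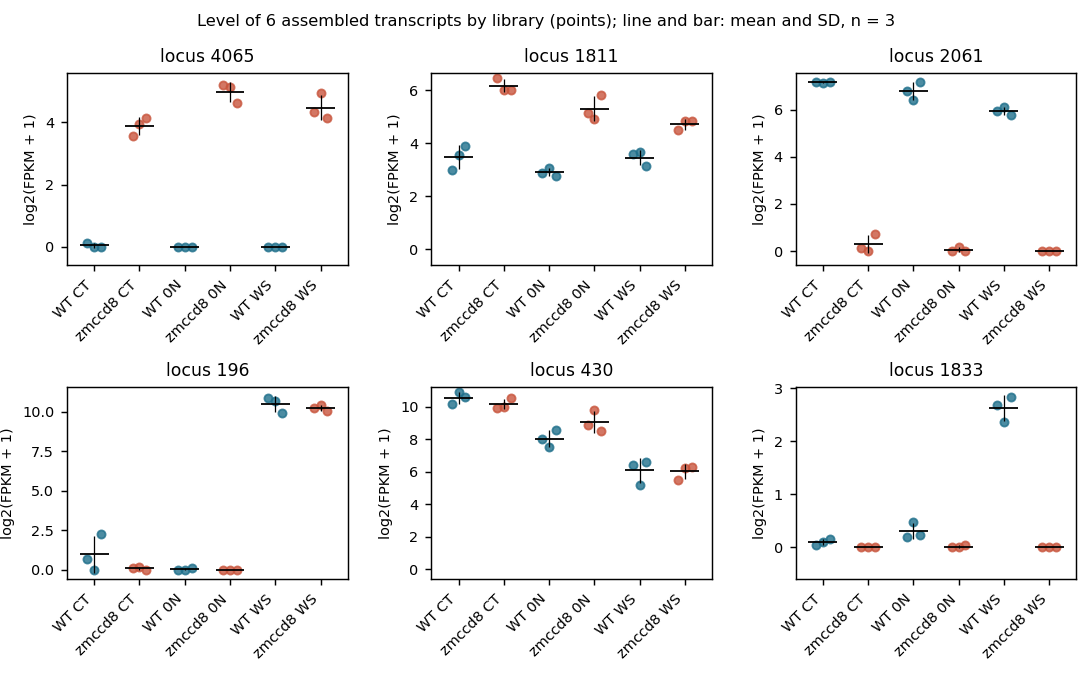
Level of 6 assembled transcripts in each of the 18 libraries, as log2(FPKM + 1), with WT in blue, zmccd8 in red, and the mean and SD of 3 libraries in black. Locus 4065 is near 0 in all WT libraries and at 10.9 to 36.2 FPKM in zmccd8, locus 1811 is present in both genotypes, locus 2061 is nearly absent in zmccd8, locus 196 is high under WS only, locus 430 falls under WS, and locus 1833 is above 1 FPKM only in WT under WS.

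Chromosome 3 carries ZmCCD8, and the question there was how the calls lie around it. Of its 341 assembled transcripts, 44, 41 and 38 were called under CT, 0N and WS (12.9%, 12.0% and 11.1%), with 30, 27 and 21 of them lower in zmccd8. In any of the 3 comparisons 60 were called, and 54 of these lay between 140 and 210 Mb, where 107 were tested (50.5%). From 0 to 140 Mb 4 of 185 were called and from 210 Mb on 2 of 49. Those 54 ran from −58.6 to 6.96 Mb relative to the start of ZmCCD8, limits that were set after the positions were seen. In the same stretch 175 of 1022 annotated genes were called (17.1%). Neither share was split by the genotype in which 1 FPKM was reached, so they are a description and no matched comparison. Transcripts at 1 FPKM in 1 genotype only, which had to differ, gave most of the calls on this chromosome too. They were 41 in WT and 26 in zmccd8 of the 341, against 51 and 25 of 2634 annotated genes of chromosome 3. Of the 274 at 1 FPKM in both genotypes, 4 were called in each condition (1.46%). All 39 assembled transcripts of chromosome 3 that were lower in zmccd8 in any comparison lay within this stretch, as did 15 of the 21 that were higher.

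**Figure D3:**
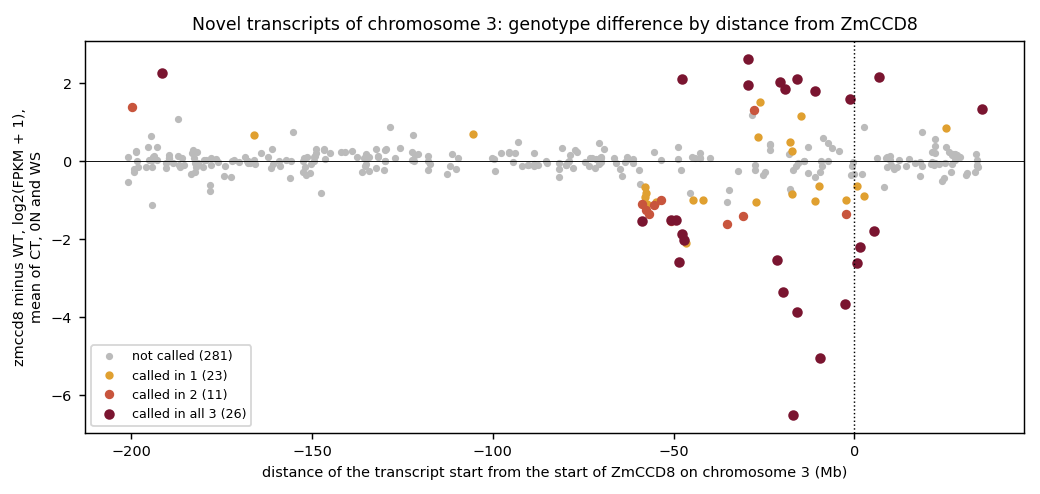
Each point is 1 of the 341 assembled transcripts of chromosome 3, by its distance from the start of ZmCCD8 in Mb (x axis, dotted line at 0) and by the mean of the 3 genotype differences on the log2(FPKM + 1) scale (y axis), and colour gives the number of comparisons in which it was called. Called transcripts crowd between −58.6 and 6.96 Mb, and 4 called ones lie further to the left and 2 further to the right.

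Lower in all 3 conditions were 15 assembled transcripts of chromosome 3, and in all 15 no zmccd8 library reached 1 FPKM. They passed the minimum through WT libraries alone and had to differ, so that their values are given as a description. Locus 2061 (chromosome 3, 185126207 to 185128418, minus strand, at a RefSeq protein-coding gene, no protein match in the table) had the largest difference. WT libraries held 142, 138 and 143 FPKM under CT, 108, 84.7 and 141 under 0N and 60.4, 67.4 and 52.7 under WS. In zmccd8 it was at 0.109, 0 and 0.671 under CT, 0, 0.124 and 0 under 0N and 0 in all 3 libraries under WS. The log2 differences were −6.85, −6.73 and −5.93. Locus 1821 (chromosome 3, 192723765 to 192726755), at a RefSeq long noncoding RNA, was at 48.1 ± 5.3, 35.2 ± 6.3 and 21.6 ± 1.69 FPKM (SD, n = 3) in WT under CT, 0N and WS, and no zmccd8 library exceeded 0.176. Locus 2066 (chromosome 3, 186476249 to 186478527), the 1 transcript of the 15 without a RefSeq gene, was at 17, 16.1 and 12.7 FPKM in WT under WS and at 0 in zmccd8. Locus 2083 (chromosome 3, 199582360 to 199586566) matches the transposase of Ac, the autonomous maize element that also mobilises Ds. It was at 10.6, 12.6 and 13 FPKM in WT under CT, and at 0, 0 and 0.0191 in zmccd8. Locus 1805 (chromosome 3, 182586062 to 182591474) matches RAD23b of Arabidopsis, a carrier of ubiquitinated proteins, and was at 8.22, 10.3 and 7.21 FPKM in WT under CT against 0.0167, 0 and 0.0317. For these 3 the differences under CT were −3.58, −3.69 and −3.22.

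Higher in all 3 conditions were 11 transcripts of chromosome 3. Locus 1811 (chromosome 3, 186365644 to 186366914) matches an osmotin-like protein of tomato, a family of defence proteins that salt and drought also induce, and both genotypes expressed it. WT libraries held 6.92, 10.7 and 13.7 FPKM under CT, 6.41, 7.32 and 5.84 under 0N and 10.9, 11.6 and 7.85 under WS. zmccd8 libraries held 86.8, 64.1 and 64.2, 34, 29.5 and 55.7 and 21.4, 27.8 and 27.6. The groups did not overlap in any condition, and the log2 difference was 2.70 (SE 0.24, adjusted p = 0.00307) under CT, 2.39 (SE 0.24, adjusted p = 0.00535) under 0N and 1.26 (SE 0.17, adjusted p = 0.0206) under WS. Under WS the call was lost in 3 of 6 fits without 1 library.

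The other 4 named transcripts of this kind were near 0 in WT. None reached 1 FPKM in a WT library, so they passed the minimum through zmccd8 alone and had to differ, and their values are a description. Locus 1793 (chromosome 3, 172837400 to 172839221) matches a RICESLEEPER protein of rice, domesticated from a transposase of the hAT family, to which Ac also belongs. It was at 2.03, 5.03 and 2.77 FPKM in zmccd8 under CT and 9.41, 10.05 and 5.22 under 0N, and its neighbour locus 1792 (172836187 to 172837362, same strand) was also called higher in all 3. Locus 1842 (chromosome 3, 209139588 to 209145229) was at 6.71, 7.63 and 4.29 FPKM in zmccd8 under 0N and 0 in WT. Under CT the calls of locus 1793 and locus 1842 were lost in 4 and 5 of 6 fits without 1 library. Locus 2029 (chromosome 3, 154567304 to 154584059), at a pseudogene, was at 3.11, 4.4 and 2.89 FPKM under CT in zmccd8 and at 0 in all 9 WT libraries. Locus 1889 (chromosome 3, 10688616 to 10689004) lies far from ZmCCD8 on the other side of the chromosome, and was likewise at 0 in all WT libraries and at 3.79, 5.25 and 4.23 FPKM in zmccd8 under CT.

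Calls made in only 1 of the 3 conditions numbered 18 under CT (0.577%), 55 under 0N (1.76%) and 19 under WS (0.609%). The shares over all features were 0.193%, 0.865% and 0.291%. These counts were not split by the genotype in which 1 FPKM was reached. Most genotype calls fell on transcripts at 1 FPKM in 1 genotype only, which had to differ, so the shares are a description. Of those named here, locus 1776, locus 2016, locus 1813, locus 2803, locus 2049, locus 459, locus 877 and locus 3323 reached 1 FPKM in 1 genotype only, and their values are a description. Under CT, locus 1776 (chromosome 3, 155518407 to 155522425) was at 3.29, 19.7 and 15.2 FPKM in WT and 0, 0 and 0.0895 in zmccd8, a difference of −3.45 whose call was lost in 5 of 6 fits without 1 library. Locus 2016 (chromosome 3, 144292829 to 144296062) was at 2.09, 2.97 and 2.65 and 0.0531, 0 and 0.0252, and locus 1574 (chromosome 2, 229989452 to 229991801) at 4.31, 2.31 and 3.24 and 0, 0.334 and 0.143, and the call of the latter was lost in 3 of 6 such fits and with limma voom. The 3 highest, locus 4192, locus 1813 and locus 4426, had differences of 2.46, 2.13 and 2.09, and all 3 lost their calls in 4 to 5 of 6 fits without 1 library. Under 0N, locus 924 (chromosome 10, 59417099 to 59419758) matches a glutamyl endopeptidase, a chloroplast protease, and was at 11.2, 5.68 and 11.9 FPKM in zmccd8 and 0.307, 0.167 and 0.0610 in WT. Locus 3175 (chromosome 5, 225041348 to 225045688) was at 24, 35.9 and 22.1 against 2.44, 4.75 and 2.04. Locus 2018 (chromosome 3, 144782637 to 144784058) matches an NDR1/HIN1-like protein, a family of membrane proteins of plant defence, and was lower in zmccd8, at 11.7, 10.02 and 17.8 against 48.2, 46.1 and 36.6 FPKM, a difference of −1.68 (SE 0.22, adjusted p = 0.0172). Locus 2803 and locus 2049 were lower by log2 differences of −1.61 and −1.38. All 3 of these lower calls were lost in 3 of 6 fits without 1 library. Under WS, locus 459, of 253 bases, was at 5.61, 5.58 and 3 FPKM in zmccd8 and at 0 in all WT libraries, and locus 877 and locus 3323 were higher by 1.93 and 1.52. The call of locus 3323 was lost in 5 of 6 fits without 1 library, with no filter and with limma voom. Locus 624 (chromosome 1, 263615511 to 263620370), at a pseudogene, was lower, at 3.42, 2.65 and 2.8 against 11.1, 17 and 9.62 FPKM, and lost its call in a fit of all 18 libraries and in 4 of 6 fits without 1 library. Of all these, an interaction of genotype and treatment was called for locus 1833 and locus 2060 only, which are the other 2 of the 3 lowest under WS and are described last.

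Water stress had more calls than genotype or nitrogen. In WT 209 were called higher (6.70%) and 378 lower (12.1%) against CT, where 7.41% and 10.4% of all features were called, and in zmccd8 206 (6.61%) and 384 (12.3%), where the shares over all features were 6.24% and 10.3%. These shares are close to those of the whole table. In both genotypes, whose libraries are separate, 413 transcripts were called, all in the same direction, 138 higher and 275 lower. This is 70.4% of the WT calls and 70.0% of the zmccd8 calls, where annotated genes gave 70.7% and 76.6%. Between 17.5% and 24.0% of the transcripts at RefSeq protein-coding genes, at long noncoding RNAs and at no gene were called in WT.

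**Figure D4:**
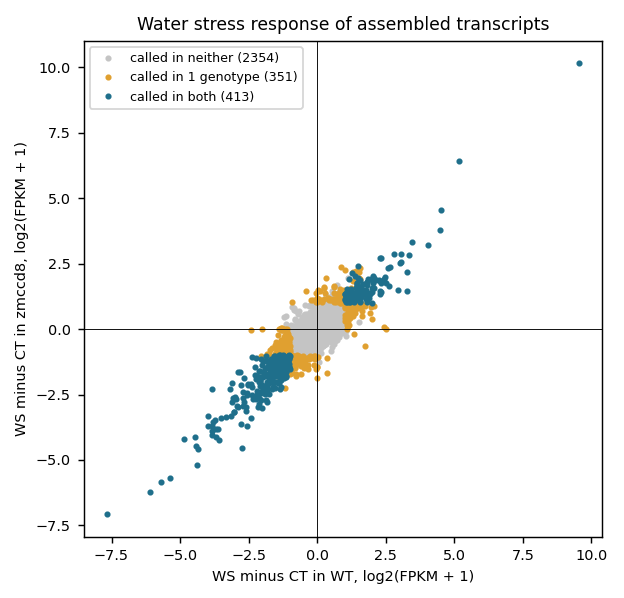
Difference between WS and CT on the log2(FPKM + 1) scale in WT (x axis) and in zmccd8 (y axis) for 3118 assembled transcripts, in blue where both genotypes had a call (413), in orange where 1 had, and in grey where neither had. All blue points lie at the upper right or the lower left.

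Locus 196, the transcript with the proline-rich frame, was the most extreme. Under CT it was at 0.582, 0 and 3.68 FPKM in WT and 0.0644, 0.132 and 0 in zmccd8, and under 0N only 1 library, at 0.0612, was above 0. Under WS it reached 1872, 1654 and 982 FPKM in WT and 1184, 1389.8 and 1066 in zmccd8. Every WS library was thus far above every other library, with log2 differences of 9.54 (SE 0.56, adjusted p = 0.000115) and 10.15 (SE 0.12, adjusted p = 2.88e-07). Neither the table nor RefSeq lists a gene there, and the nearest annotated gene is 10144 bases away.

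The other 4 highest also went from low levels to clear expression. Locus 390, the lt101.2 match, was at 8.84, 6.71 and 6.73 FPKM under CT and 235, 321 and 346 under WS in WT, and at 1.12, 1.56 and 4.57 and 199.6, 369 and 252 in zmccd8. Its differences were 5.15 (SE 0.18, adjusted p = 1.59e-05) and 6.41 (SE 0.38, adjusted p = 7.28e-05). Locus 2302 (chromosome 4, 164796356 to 164799193) matches abscisic acid 8'-hydroxylase 1 of rice, which starts the breakdown of the drought hormone abscisic acid, and was at 1.66, 2.39 and 2.41 FPKM under CT and 68, 56 and 85.5 under WS in WT. In zmccd8 it was at 3, 3.09 and 2.63 and 44.9, 58 and 54.6. Locus 3155 (chromosome 5, 208940215 to 208950445) matches AKT1, the inward potassium channel of roots, and lies 244 bases from Zm00001eb252040 on the same strand. Under WS it was at 17.3, 12.7 and 17.9 FPKM in WT, with zmccd8 at 8.59, 9.59 and 6.82, and it was at no more than 0.0181 under CT. Zm00001eb252040 averaged 5.79 FPKM under CT and 6.23 under WS in WT and was not called. Locus 3210 (chromosome 6, 18868180 to 18871377), at a long noncoding RNA, rose by 4.53 (SE 0.14, adjusted p = 1.03e-05) in WT and 4.53 (SE 0.29, adjusted p = 9.26e-05) in zmccd8.

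Among transcripts that fell under WS, locus 430, the metallothionein match, lost more FPKM in WT than any other but locus 230. It was at 1140.0, 1913 and 1519 FPKM under CT and 84.4, 35.9 and 98.3 under WS in WT, and at 985, 1029 and 1474 and 44, 75.5 and 78.6 in zmccd8. The differences were −4.46 (SE 0.41, adjusted p = 0.000556) and −4.14 (SE 0.27, adjusted p = 9.77e-05). Under 0N it was at 259, 181 and 377 FPKM in WT, a difference from CT of −2.51 (SE 0.37, adjusted p = 0.0167), and at 474, 889 and 359 in zmccd8, −1.10 (SE 0.40, adjusted p = 0.0915). The largest log2 differences belonged to transcripts with no protein match. Locus 3764 (chromosome 7, 2815055 to 2815919) went from 229.6, 192 and 485 FPKM to 0.0384, 0.402 and 0.800 in WT, and from 118, 76.8 and 491 to 0.703, 0.124 and 0 in zmccd8. Locus 4550 (chromosome 9, 2830673 to 2831669) averaged 224 ± 62.9 FPKM (SD, n = 3) under CT and 2.36 ± 1.2 under WS in WT, and in zmccd8 it went from 149 ± 18.9 to 1.12 ± 0.989. Locus 1696 (chromosome 3, 72427921 to 72432379) and locus 1989 (chromosome 3, 127651340 to 127653633) changed by −5.68 and −5.38 in WT and by −5.84 and −5.70 in zmccd8. Locus 364 (chromosome 1, 19860076 to 19869854) was at 146, 193 and 147 FPKM under CT and 4.6, 0.713 and 47.7 under WS in WT, where replicate 3 stands apart, and its call in WT was lost in 4 of 6 fits without 1 library.

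Nitrogen deprivation had fewer calls, mostly lower ones in WT. In WT 36 were called higher under 0N than under CT (1.15%) and 159 lower (5.10%), against 1.94% and 2.82% of all features. In zmccd8 107 were higher (3.43%) and 120 lower (3.85%), against 1.74% and 5.63%. Both genotypes had calls at 59 transcripts, 16 higher and 43 lower, which is 30.3% of the WT and 26.0% of the zmccd8 calls, where annotated genes gave 41.3% and 25.6%. Whether higher or lower calls were more numerous in zmccd8 depended on the processing. Higher ones outnumbered lower ones with FPKM rescaled to all reads of a library, an alternative chosen after seeing the data (139 and 115), with limma voom (247 and 176), in a fit of all 18 libraries (205 and 170) and without zmccd8 0N replicate 3 (237 and 137). The counts depended on single libraries: the WT count of 195 was 119 without WT CT replicate 3 and 48, 90 and 91 without WT 0N replicates 1, 2 and 3. The zmccd8 count of 227 was 19 and 11 without zmccd8 CT replicates 1 and 3, 19 and 47 without zmccd8 0N replicates 1 and 2, and 374 without zmccd8 0N replicate 3.

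Lower under 0N in both genotypes were locus 3764 and locus 364, also named above, and locus 4370, locus 3404 and locus 2142. Locus 4370 (chromosome 8, 5532639 to 5533950), at a RefSeq protein-coding gene, was at 20.01, 25.2 and 20.5 FPKM under CT and 2.94, 3.87 and 0.587 under 0N in WT, and at 25.1, 24 and 26.6 and 0.891, 0.201 and 1.26 in zmccd8. The groups were far apart in both genotypes, −2.87 (SE 0.42, adjusted p = 0.0164) and −3.93 (SE 0.25, adjusted p = 0.00286), while the WS libraries of WT, at 24.1, 23.6 and 16.7, stayed near CT. Locus 3764 was at 26.6, 25.7 and 9.65 FPKM under 0N in WT and 3.46, 0.0962 and 11.8 in zmccd8. Locus 364 held 22.3, 14.9 and 12.8 and 17.8, 25.6 and 24. Locus 3404 (chromosome 6, 175777811 to 175778507) and locus 2142 (chromosome 4, 3445493 to 3445967) varied widely under CT, the former from 3.85 to 16.9 FPKM in WT, and lost calls in 3 to 4 of 6 fits without 1 library.

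Higher under 0N in both were locus 4211, locus 4772, locus 3322, locus 1878 and locus 2149. Locus 3322 (chromosome 6, 113562861 to 113565154) matches acyl transferase 10 of rice, and was at 0.705, 1.54 and 0.524 FPKM under CT and 11.1, 7.5 and 12.4 under 0N in WT, with zmccd8 at 0.905, 1.2 and 1.41 and 4.03, 5.82 and 5.09. The differences were 2.57 (SE 0.27, adjusted p = 0.00791) in WT and 1.46 (SE 0.19, adjusted p = 0.0166) in zmccd8. Locus 4211 (chromosome 8, 27527903 to 27528585), at a long noncoding RNA, went from 2.3, 0.911 and 0.267 FPKM under CT to 9.01, 7.31 and 8.17 under 0N in WT, and from 0.508, 0.520 and 0.884 to 13, 25 and 14.9 in zmccd8. Locus 4772 (chromosome 9, 6780223 to 6782550) rose by 2.36 in WT and 2.55 in zmccd8, and locus 1878 (chromosome 3, 2826367 to 2827634) by 1.77 and 1.37. Locus 2149 (chromosome 4, 5516278 to 5519735) matches polyol transporter 6 of Arabidopsis, a carrier of sugar alcohols, and lies 65 bases from Zm00001eb166220 on the same strand. It averaged 4.58 ± 0.774 FPKM (SD, n = 3) under CT and 13.9 ± 4.34 under 0N in WT, 1.38 (SE 0.24, adjusted p = 0.0262), a call lost in 5 of 6 fits without 1 library, and the annotated neighbour went from 1.99 to 5.16 FPKM.

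The 76 transcripts matching TAR1 (47) or ART2 (29), yeast proteins named from frames inside the ribosomal DNA unit, were highest in zmccd8 under 0N. This list was set up after its values were seen. Ribosomal RNA has no long poly(A) tail and is mostly removed by a poly(A) selection. The loci were near the minimum, with a median of the mean FPKM of 0.985. Of the 76, 66 lie on chromosome 6 between 16763505 and 23723092 and 10 on scaffolds, and 58 overlap a RefSeq rRNA gene. Ribosomal DNA copies are nearly identical and can share reads, so single members are uncertain. Their summed FPKM was 193, 459 and 133 in zmccd8 under 0N and 21.8, 76 and 28.8 in WT under 0N. Under CT it was 40.6, 36.6 and 48.6 in WT and 31.9, 69.0 and 84.4 in zmccd8, and under WS 112, 40.2 and 88.5 in WT and 33.4, 56.9 and 132 in zmccd8. All 3 zmccd8 0N libraries were thus above all others, by a narrow margin for replicate 3 over zmccd8 WS replicate 3, and replicate 2 was far above the rest. In the zmccd8 0N libraries 75, 76 and 66 of the 76 reached 1 FPKM, against 2 to 68 in the other libraries, so that the minimum was met largely through this group. Of the 76, 10 were called higher under 0N than under CT in zmccd8, where 1.74% of all features were called higher, and nothing is read from this count. The 175 transposon-like transcripts summed to 1012, 1159 and 802 FPKM in the same 3 libraries and to 631 to 809 in the other 15. The share of reads on all assembled transcripts was 5.10%, 5.81% and 5.05% in these 3 libraries and 3.94% to 5.26% in the other 15, with WT CT at 5.04% to 5.06%. The part of the rDNA-type and transposon-like transcripts in the 0N counts was not tested.

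**Figure D5:**
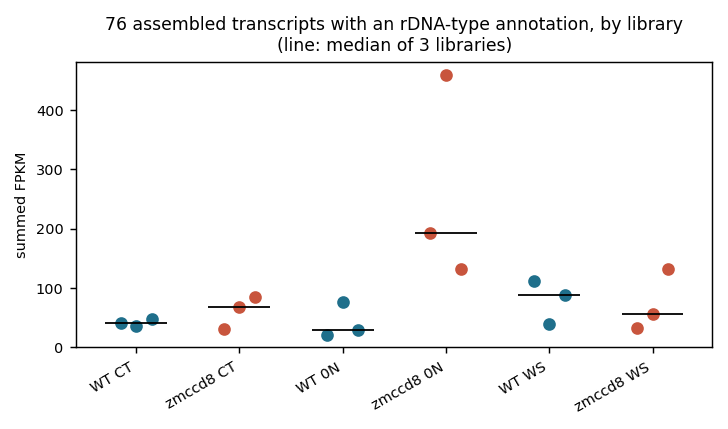
Summed FPKM of the 76 rDNA-type assembled transcripts in each library (points), by group, with the median of 3 libraries as a line. The zmccd8 0N libraries stand at 193, 459 and 133 and the other 15 libraries between 21.8 and 132.

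Annotation lists were formed by key words with earlier results of these data known. Transcripts whose protein match has the word kinase numbered 44, a mixture of receptor-like kinases, other protein kinases and enzymes of metabolism, with 1 kinase inhibitor. Of these, 5, 9 and 7 were higher in zmccd8 under CT, 0N and WS and 1 each was lower, 13.6%, 22.7% and 18.2% called in all, where 3.46%, 5.10% and 3.37% of the 3118 were called. All of these calls fell on the 11 kinase matches that reached 1 FPKM in 1 genotype only, 10 in zmccd8 and 1 in WT, so that the shares are no result about kinases. Besides locus 1193 they include locus 4026, which matches the receptor-like kinase SD1-6, at 15.4 ± 4.13 FPKM (SD, n = 3) in zmccd8 under 0N, and locus 4552, which matches an S-receptor kinase, at 12.7 ± 1.68 FPKM, with WT at 0 and 0.0136 ± 0.0235. Under WS 4 of the 44 were higher and 3 lower in WT (15.9% called, against 17.8% of all features). Glycerol kinase, which feeds glycerol into metabolism, was matched by locus 2046, at 9.30 ± 2.23 FPKM under CT in WT and 0.689 ± 1.08 under WS, a difference of −2.76 (SE 0.43, adjusted p = 0.00376). The 175 transposon-like transcripts had 3 higher and 3 lower under CT between genotypes, 6 and 4 under 0N, and 2 and 4 under WS, and their shares of 3.43%, 5.71% and 3.43% were near those of the 3118. Water stress lowered 28 of them and raised 12 in WT, and 27 and 11 in zmccd8 (22.9% and 21.7% called, against 17.8% and 16.6% of all features and 18.8% and 18.9% of the 3118). Locus 2525, which matches a gypsy-type polyprotein, was at 21.2 ± 7.52 FPKM under CT and 0.977 ± 1.24 under WS in WT, and at 16.7 ± 7.11 and 0.212 ± 0.0968 in zmccd8. Of 2 disease resistance matches, locus 3180 fell under WS in WT by a log2 difference of −1.01 (adjusted p = 0.00365).

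The nearest annotated gene was compared with each called transcript. Shares given for the neighbours of all transcripts count calls in either direction, so same-direction shares alone do not compare with them. Under WS in WT, the nearest gene of 360 called transcripts was tested. It was called in the same direction for 60 (16.7%), in the opposite direction for 16, and not called for 284. Of the nearest genes of all transcripts, 18.3% were called in either direction. Within 1000 bases it was 9 of 48 in the same direction (18.8%) and 0 of 48 in the opposite one, with 16.1% of all neighbours at this distance called. For 0N in zmccd8 it was 17 of 146 in the same direction (11.6%) and 5 in the opposite one at any distance, with 8.24% of all neighbours called. Within 1000 bases it was 0 of 25 in the same direction and 2 in the opposite one, with 9.39% called. At this distance 0N in WT gave 2 of 9 and 0, with 6.67% called, and WS in zmccd8 9 of 43 and 0, with 16.7% called. For the genotype comparison under CT, 2 of 55 tested neighbours were called in the same direction and 2 in the opposite one. Of the neighbours of all transcripts 0.461% were called. This is no matched base, since 44 of the 108 called transcripts lie on chromosome 3, where 3.34% of annotated genes were called. Within 1000 bases the genotype comparisons under CT, 0N and WS gave 1 of 8, 2 of 12 and 2 of 11 in the same direction. None was called in the opposite one. Of all neighbours at this distance 0.303%, 1.52% and 0.606% were called, again no matched base.

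Differences in response between genotypes were tested by an interaction. For 0N limma called 0 of 3118 transcripts, and 0% of all features, while 634 transcripts (20.3%) had an unadjusted p under 0.05. limma voom also called 0, the count without zmccd8 0N replicate 3 was 22 and without zmccd8 CT replicate 3 it was 1. The median interaction was 0.19 over the assembled transcripts and −0.02 over annotated genes. For WS 3 transcripts were called, where 0.0218% of all features, 6 in number, were, and all 3 lie on chromosome 3 in the stretch around ZmCCD8. No zmccd8 library reached 1 FPKM of any of the 3, so that they passed the minimum through the WT libraries in which they were high, and their interactions are a description. Locus 1833 (chromosome 3, 200027624 to 200030161) was at 5.41, 4.11 and 6.16 FPKM in WT under WS, at most 0.390 in any other WT library, and at 0 in all zmccd8 libraries but 1, at 0.0289. Only the WT libraries under WS were above 1 FPKM, and the interaction came to −2.53. Its neighbour Zm00001eb152360, 438 bases away on the same strand, rose under WS by 0.63 in WT and 1.12 in zmccd8. That gene had an interaction of 0.49 (adjusted p = 0.587). Locus 2060 (chromosome 3, 185090935 to 185093947) was at 4.58, 2.99 and 6.47 FPKM in WT under WS and at 0.0476, 0.0335 and 0.0578 in the zmccd8 libraries, an interaction of −2.35. It starts 1 base from Zm00001eb148130, which rose under WS by 2.05 in WT and 1.10 in zmccd8. The interaction of that gene was −0.95 (adjusted p = 0.147), and under WS its zmccd8 minus WT difference was −0.88 (adjusted p = 0.00772). Locus 1764 (chromosome 3, 144676762 to 144677508) was at 4.85, 2.31 and 4.04 FPKM under CT and 0.0795, 0.0693 and 0.243 under WS in WT and at 0 in all 9 zmccd8 libraries, an interaction of 2.03. These 3 rest on levels near 1 to 6 FPKM against 0. A pseudocount of 0.1 and limma voom called none of them, and 1 was called in each fit without WT WS replicate 1, without any 1 of the 3 zmccd8 CT libraries, or without zmccd8 WS replicate 1 or 2. Of 19 alternative fits that held them, locus 1833 was called in 17, locus 2060 in 7 and locus 1764 in 4.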

How the data were processed

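Root mRNA of 18 libraries was sequenced (poly(A) selection, strand-specific). Per the labels and the study's methods, the authors trimmed reads with fastp (the submitters' processing notes also list Trimmomatic and Subread), aligned them to Zm-B73-REFERENCE-NAM-5.0 with HISAT2 2.0.5, assembled further transcripts with StringTie, counted with featureCounts, and deposited FPKM per feature and library. The FPKM of a library correspond to 0.967 to 1.05 times its rebuilt reads, and median of ratios factors over the deposited FPKM were 1.01 in all libraries, so the values are already on that scale.

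The transcripts kept, the annotation lists and the tests were chosen with earlier results of these data known. Groups came from the sample labels. limma 3.58.1 (R 4.3.3, with a mean-variance trend) was fitted to log2(FPKM + 1) of the 27530 features at 1 FPKM in 3 or more libraries, separately for each comparison on its own libraries, and p-values were adjusted by Benjamini-Hochberg over all of them. A feature was called at an adjusted p of 0.05 or less and a log2 difference of 1 or more in size. Interactions were fitted on 4 groups. Reads rebuilt from FPKM served for depth (30104083 to 43429912 per library) and for a limma voom alternative only, because FPKM are not counts.

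Named were the 8 highest means, the 5 highest and 5 lowest transcripts called without overlap in all 3 genotype comparisons on chromosome 3 and elsewhere, the 5 highest and 5 lowest called in both genotypes per treatment, all interaction calls, and the 3 highest and 3 lowest called in 1 genotype comparison only. List examples, locus 1792 and the neighbours were named after their values were seen. On simulated data with 200 changed features, 79.5% to 91.5% were recovered at a log2 change of 2, with 0 to 7 false calls. Only better expressed features were given a change, and no rate was worked out for assembled transcripts alone. Means were under 2 FPKM for 58.5% of the assembled transcripts, so the rates do not tell how well changes in these are recovered. Same-numbered libraries deviated together (residual correlation over 0.1 in all 3 pairs) only for WS against CT in zmccd8 (0.135, 0.224 and 0.253), and nothing in the labels pairs them. For 0N against CT in zmccd8 the values were 0.143, 0.390 and 0.0963, the last just under that limit. Open frames were read from the study's transcript sequences, and gene classes from RefSeq for the same assembly. Python 3.11.15, numpy 2.4.6, pandas 2.3.3 and matplotlib 3.10.9 were used. Alternatives were another pseudocount, other filters, scalings and tests, a replicate block, each library left out and, chosen after seeing the data, rescaling to all reads and counting only transcripts at 1 FPKM in both genotypes.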

Additional observations from a re-analysis of the deposited data

Results flagged for a closer look

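The 3 assembled transcripts with a called interaction of genotype and WS (limma, Benjamini-Hochberg adjustment over 27530 features) are given as values only. None reached 1 FPKM in a zmccd8 library, so each passed the minimum through the WT libraries in which it was high, and the interaction largely restates that pattern. It was −2.5256 for locus 1833, whose only libraries above 1 FPKM are the 3 of WT under WS, and −2.3535 for locus 2060, with 2.99 to 6.47 FPKM in WT and 0.0335 to 0.0578 in zmccd8 under WS. It was 2.0289 for locus 1764, which was listed at 0 in all 9 zmccd8 libraries, so that its value is the change in WT alone. All 3 lie on chromosome 3 between 140 and 210 Mb.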

How the results depend on the processing

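No difference of a named transcript changed sign under any alternative run. For 0N in zmccd8 the balance of 107 higher and 120 lower calls turned to 139 and 115 after rescaling to all reads, 247 and 176 with voom, 205 and 170 in the fit of all 18 libraries and 237 and 137 without zmccd8 0N replicate 3. Counting only transcripts at 1 FPKM in both genotypes, chosen after seeing the data, left 10, 25 and 9 genotype calls under CT, 0N and WS, 3 in all 3 and 0 for the interaction with WS. With a mean of 2 FPKM or more as the filter, which tests fewer assembled transcripts, the calls numbered 42, 55 and 42 between genotypes under CT, 0N and WS, 37 in all 3, 306 for WS in each genotype, and 0 for the interaction with WS. With no filter there were 2 and 6 interaction calls for 0N and WS. A pseudocount of 0.1 gave 293 calls for 0N in WT, 946 for WS in zmccd8 and 0 for the interaction with WS, and limma voom on rebuilt reads gave 310 and 423 for 0N in WT and zmccd8, 925 for WS in zmccd8 and 0 for that interaction. A fit of all 18 libraries gave 369 genotype calls under 0N, 375 for 0N in zmccd8 and 7 interactions with WS. The causes of these shifts were not tested. Rescaling to all reads, chosen after seeing the data, kept each count within 1.5 times, and the median of ratios gave 225 for 0N in zmccd8 and 583 and 586 for WS in WT and zmccd8 and changed no other count. With a replicate block the counts were 73 between genotypes under 0N, 84 for 0N in WT, 1 for the interaction with WS and 52 in all 3 genotype comparisons. For 0N and WS in zmccd8 they were 295 and 600. Of 106 differences of named transcripts, 13 lost their call with that block, 11 with voom, 4 with the other pseudocount, 3 with no filter and 1 each in the fit of 18 libraries and after rescaling. Leaving out 1 library gave 69 to 92, 87 to 264 and 72 to 103 genotype calls under CT, 0N and WS, and 48 to 68 in all 3. It gave 48 to 189 and 11 to 374 for 0N in WT and zmccd8, 488 to 574 and 536 to 585 for WS, and 0 to 22 and 1 to 4 for the interactions with 0N and WS. Of 654 such refits of named differences 124 lost the call. Means were under 2 FPKM for 58.5% of the assembled transcripts, and how far their read numbers limit the calls was not tested.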
